A study of Mus musculus with 28 samples.

Results

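*Cartpt*, which encodes the precursor of CART peptides, was read beside 8 genes for peptides of hypothalamic neurons, *Agrp*, *Hcrt*, *Pmch*, *Trh*, *Crh*, *Avp*, *Oxt* and *Gal*. The 9 genes were chosen by name from what they encode, out of 21938 protein-coding genes annotated on chromosomes 1 to 19, X and Y. The data were CnR libraries (CUT&RUN, in which an antibody directs a nuclease to cut out the chromatin carrying a histone mark) made after INTACT, the capture of nuclei tagged with the membrane protein fusion Sun1-sfGFP. Nuclei came from the bilateral striatum of adult male and female mice on the C57BL/6J background that carried a Cre-dependent Sun1-sfGFP gene at the R26 locus (R26-CAG-LSL-Sun1-sfGFP) together with A2a-cre (A2a nuclei) or *Drd1*-cre (D1 nuclei), so each tag marked the medium spiny neurons (MSNs) in which that Cre driver had been active. Neither group received a treatment.

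H3K4me3 (Abcam antibody) and H3K27me3 (Active Motif antibody) were profiled with 2 replicates in each cell type, 8 of the 28 samples in the series. The authors deposited 1 list of called regions per cell type and mark, 4 in all. Each list pools its replicates, so no value below has a replicate error, no difference could be tested between mice, and the intervals given are for counting error alone. The labels of the D1 H3K27me3 libraries contradict each other, with A2a in the source name against D1 in the title and cell type. These libraries were read as D1, and each A2a to D1 comparison of H3K27me3 rests on that. So read, the H3K27me3 island at the *Drd1* promoter held 1958 reads in A2a and 86 in D1. At *Drd2* the islands held 160 and 559 reads, and *Adora2a*, the A2a receptor gene, had an island in D1 alone, of 4153 reads. Each list thus had fewer reads or no island at the receptor genes of its own cell type, the direction that the D1 title gives. The total depth of each library is unknown from the lists. The A2a islands together held 2.21e+07 reads over 301 Mb, and the D1 islands 7.88e+06 reads over 184 Mb. The part of this gap in the islands called in A2a alone was not tested. The A2a lists held more regions than the D1 lists, with 22551 against 20080 H3K4me3 peaks and 60191 against 45760 H3K27me3 islands, and an A2a island had a median of 62.5 reads per kb against 37.2 in D1. Markers of the captured cells carried H3K4me3 at 7 of 7 projection neuron genes in both lists, beside 55.6% of all protein-coding genes. Of the markers of other striatal cells, H3K4me3 was called at 3 of 5 oligodendrocyte, 1 of 4 astrocyte, 1 of 4 microglia and 0 of 4 interneuron genes in A2a, and at 2, 1, 0 and 0 of them in D1. The share of all protein-coding genes was 58.2% in A2a and 55.7% in D1, so the oligodendrocyte count in A2a was near it. The part of other cells in the values below was not tested.

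H3K4me3 sits at the promoters of active genes and of many CpG-rich promoters that are held ready, whereas H3K27me3 is deposited by Polycomb repressive complex 2 over silenced developmental and lineage genes. A promoter with both marks is termed bivalent, although in a population of nuclei the marks may also lie in different cells or on different alleles. CART is made by striatal and hypothalamic neurons, and its striatal mRNA is known for its response to psychostimulants. The other peptides are made by hypothalamic neurons that control feeding, arousal, stress, water balance and reproduction, and some of them also by scattered neurons elsewhere. RNA was not analysed here, so the lists say where marks were called and not which gene was transcribed.

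The promoters of 7 of the 9 genes were matched by symbol in a table of RefSeq sequences (GRCm38.p6) that runs from 250 bases before to 50 bases after each start. *Crh* and *Agrp* had no entry. The 4 sequences below are shown because they span the range of CpG sites and of marks among the genes. *Cartpt* carried both marks in both lists, *Trh* carried H3K27me3 alone, *Pmch* carried H3K27me3 in A2a alone and *Hcrt* carried neither. They are written 5′ to 3′ on the strand of the gene, and capitals mark CpG sites, the substrate of DNA methylation. *Cartpt* is chr13:99900634-99900933 on the minus strand, *Trh* is chr6:92244601-92244900 on the minus strand, *Pmch* is chr10:88090822-88091121 on the plus strand and *Hcrt* is chr11:100762882-100763181 on the minus strand.
Cartpt: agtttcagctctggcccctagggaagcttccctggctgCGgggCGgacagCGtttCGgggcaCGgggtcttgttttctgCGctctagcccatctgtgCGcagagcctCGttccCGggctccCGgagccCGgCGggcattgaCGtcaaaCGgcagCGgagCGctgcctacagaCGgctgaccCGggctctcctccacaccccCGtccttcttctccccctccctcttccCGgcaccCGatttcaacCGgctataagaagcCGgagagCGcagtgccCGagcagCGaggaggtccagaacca
Trh: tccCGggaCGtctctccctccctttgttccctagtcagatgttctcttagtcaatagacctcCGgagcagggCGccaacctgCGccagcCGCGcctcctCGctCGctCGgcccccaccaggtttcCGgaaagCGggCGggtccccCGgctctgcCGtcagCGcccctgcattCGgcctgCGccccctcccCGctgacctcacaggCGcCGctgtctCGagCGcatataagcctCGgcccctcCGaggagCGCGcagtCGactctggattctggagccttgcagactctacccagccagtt
Pmch: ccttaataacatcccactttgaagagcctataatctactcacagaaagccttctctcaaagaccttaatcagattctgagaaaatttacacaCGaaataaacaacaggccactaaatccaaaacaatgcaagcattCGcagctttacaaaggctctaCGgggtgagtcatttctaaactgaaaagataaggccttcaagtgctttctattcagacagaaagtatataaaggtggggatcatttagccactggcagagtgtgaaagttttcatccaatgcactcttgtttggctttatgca
Hcrt: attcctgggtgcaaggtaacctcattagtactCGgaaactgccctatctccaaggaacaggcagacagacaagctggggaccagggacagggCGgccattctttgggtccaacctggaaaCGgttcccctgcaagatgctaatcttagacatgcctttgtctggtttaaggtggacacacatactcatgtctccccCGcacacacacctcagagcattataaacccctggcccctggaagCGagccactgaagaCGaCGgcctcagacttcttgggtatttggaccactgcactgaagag

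These 300-base windows held 26 CpG sites at *Cartpt*, 28 at *Trh*, 16 at *Gal*, 8 at *Avp*, 7 at *Hcrt*, 6 at *Oxt* and 3 at *Pmch*, against a median of 7 over the 32851 promoters of the table. *Cartpt* and *Trh* thus stood apart from the others in CpG sites, yet H3K4me3 was called at *Cartpt* and not at *Trh*. Motifs were searched on both strands. The cAMP response element TGACGTCA, bound by CREB family factors, lay at bases 139 to 146 of the *Cartpt* sequence, 112 bp upstream of the RefSeq start, and in none of the other 6. It is found in 1.79% of promoters in the table. Its shorter form TGACG, which TGACGTCA contains, also occurred at *Trh* (96 bp upstream) and *Gal* (19 bp downstream), and 20.8% of all promoters hold it. The letters TATAAA were found at *Hcrt*, 33 bp upstream, and at *Pmch*, 27 bp upstream, as in 13.6% of promoters. The GC box GGGCGG was found at *Cartpt*, *Hcrt*, *Trh* and *Gal*, as in 35.7% of promoters. The Nr4a motif AAAGGTCA, held by 1.51% of promoters, was in none of the 7. These are matches of letters and were not read as bound sites.

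A promoter was counted as marked when a called region overlapped the interval from 2 kb upstream to 1 kb downstream of the annotated 5′ end by at least 1 bp. H3K27me3 was the more frequent mark at these genes. In A2a, islands were called at 7 of the 9 promoters, against 21.7% of all protein-coding genes, and in D1 at 5 of 9, against 15.3%. Those 5 were marked in both lists, as were 14.3% of all genes. H3K4me3 was called at 3 of 9 in A2a (58.2% of all genes) and at the same 3 in D1 (55.7%, and 55.6% in both lists), and 1 of these, *Agrp*, is set by the promoter of another gene, as described below. Both marks were found at *Cartpt* and *Crh* alone among the 9, in A2a (9.54% of all genes), in D1 (5.57%) and therefore in both lists (5.21%). At the 5′ end of the RefSeq gene, 9088 bp upstream of the GENCODE one, *Cartpt* had neither mark in its promoter interval in either list. With the gene body added to the promoter, islands were counted at 8 genes in A2a and 6 in D1 and both marks at 3 in each, since the extended GENCODE model of *Agrp* then gained an island. *Trh*, *Oxt* and *Gal* carried H3K27me3 without H3K4me3 in both lists, a state of 7.58% of all genes. *Avp* and *Pmch* had an island in A2a alone, as did 7.38% of genes. *Hcrt* had neither mark in either list, a state found at 29.7% of genes in A2a and 34.5% in D1. The state of 7 of the 9 promoters was the same in both lists. The share of all genes with the same state in both lists was not computed, so this count is not read as particular to the 9 genes. *Avp* and *Oxt* lie next to each other and shared an island in A2a, so the 9 genes stand for fewer independent loci.

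**Figure D1:**
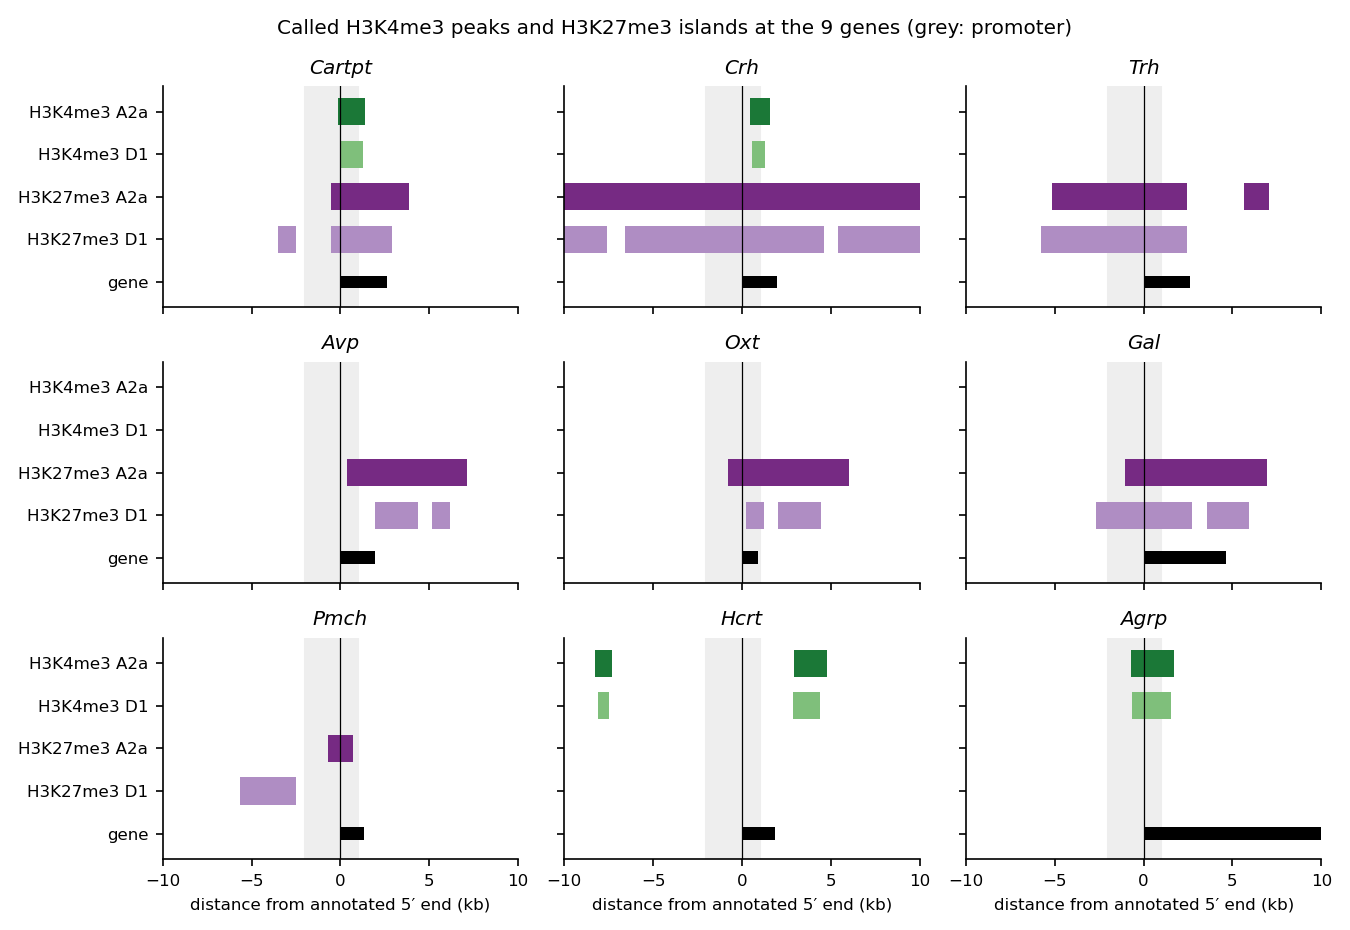
Called regions within 10 kb of the annotated 5′ end of each of the 9 genes, drawn to scale in the direction of transcription (x axis, distance in kb), with rows for the H3K4me3 peaks (green) and H3K27me3 islands (purple) of the A2a and D1 lists and for the gene (black). Grey marks the promoter from 2 kb upstream to 1 kb downstream. Green and purple regions coincide at *Cartpt* and *Crh*, purple stands alone at *Trh*, *Avp*, *Oxt*, *Gal* and *Pmch*, and the *Hcrt* promoter is empty.

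*Cartpt* (ENSMUSG00000021647.7, chromosome 13 from 99898489 to 99901091, minus strand, 2603 bp) was covered by H3K27me3 over its whole length in both lists. The island ran from 99897201 to 99901600 in A2a and from 99898201 to 99901600 in D1, so both ended at the same point 509 bp upstream of the 5′ end and differed at the 3′ side. The A2a island held 120 reads per kb (95% Poisson interval 110 to 131) and the D1 island 81.8 (72.4 to 92.0). By reads per kb these values stood at percentiles 98.7 and 99.4 within their lists, higher than the ranks of the same islands by total reads, 86.1 and 89.2. The islands were short for their density. H3K27me3 covered 22.0% of the 20 kb around the 5′ end in each list. In D1 this share included a second island of 1.0 kb, which lay 2510 bp upstream of the 5′ end, outside the promoter.

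The H3K4me3 peaks at *Cartpt* lay inside these islands. The A2a peak reached from 99899703 to 99901198, with a fold enrichment of 6.45 over the local background and a −log10 q of 24.0. The D1 peak reached from 99899832 to 99901129, with a fold enrichment of 4.86 and a −log10 q of 9.93. By −log10 q they stood at percentiles 35.3 and 20.2, so both ranked below most called peaks by that measure. By fold enrichment, the A2a peak was near the list median of 6.65 and the D1 peak was below its list median of 6.33. GENCODE gives *Cartpt* a second start 450 bp downstream of the first. The start in the RefSeq promoter table lies 408 bp downstream of the GENCODE 5′ end, whereas the RefSeq gene as a whole begins further upstream, 9496 bp from that start. The 300-base RefSeq sequence printed above lay wholly inside the peak in both lists, and the point of highest signal lay 203 bp upstream of the start in that RefSeq table in A2a and 479 bp downstream of it in D1. The nearest protein-coding neighbours, *Mccc2* (an enzyme subunit of leucine breakdown) at 115 kb and *Bdp1* (a subunit of RNA polymerase III initiation factor) at 203 kb, carried H3K4me3 without H3K27me3 in both lists.

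Of the genes made in the paraventricular nucleus, *Crh*, which encodes the hormone that starts the pituitary stress response, had the widest island of the 9. *Crh* (ENSMUSG00000049796.4, chromosome 3 from 19693401 to 19695396, minus strand) lay in an A2a island of 30.6 kb, from 19683601 to 19714200, with 3252 reads. In D1 the gene lay in an island of 11.2 kb with 718 reads, from 19690801 to 19702000, and islands of 6.4 and 7.0 kb lay on its sides. H3K27me3 covered 100% of the 20 kb around the 5′ end in A2a and 91.0% in D1, where the median protein-coding gene had 0% in both. Both *Crh* peaks lay within the gene rather than across its 5′ end, starting 468 bp downstream in A2a (fold enrichment 7.65) and 579 bp downstream in D1 (6.04). By −log10 q they ranked at percentiles 35.2 and 28.8. The neighbour *Trim55*, a muscle RING finger gene that ends within the same A2a island, carried H3K27me3 without H3K4me3 at its own promoter, 50.9 kb away.

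*Trh*, which encodes thyrotropin-releasing hormone, held H3K27me3 over 94.6% of the gene in both lists. The gene (ENSMUSG00000005892.4, chromosome 6 from 92242061 to 92244650, minus strand) was overlapped by an island of 7.6 kb with 954 reads in A2a and of 8.2 kb with 431 reads in D1. The islands began at the same base, 92242201, and reached 5150 bp and 5750 bp upstream of the 5′ end. At 126 reads per kb (118 to 134) the A2a island was the densest of the 9 genes, and the D1 island held 52.6 (47.7 to 57.8). No H3K4me3 peak was called nearer than 28.4 kb from the promoter in either list, and that peak belonged to the neighbour *Rbsn*.

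*Avp* (vasopressin, which retains water) and *Oxt* (oxytocin, which acts in birth, nursing and social behaviour) face each other on chromosome 2 with 5′ ends 6.38 kb apart. *Oxt* (ENSMUSG00000027301.7) lies from 130576173 to 130577054 on the plus strand and *Avp* (ENSMUSG00000037727.6) from 130580620 to 130582554 on the minus strand. In A2a, a single island from 130575401 to 130582200 with 641 reads (94.3 per kb, 87.1 to 102) covered all of *Oxt*, the interval between the genes and 81.7% of *Avp*. It stopped 354 bp short of the *Avp* 5′ end. In D1, this stretch held an island of 1.0 kb within and past *Oxt* with 46 reads and an island of 2.4 kb with 124 reads that ended 954 bp from the *Avp* promoter interval. The 46 reads ranked at percentile 0.962 of the D1 islands, near the floor of 27 reads. The presence of H3K27me3 at *Oxt* in D1 thus rests on 1 of the islands with the fewest reads. By reads per kb (46.0) this short island stood at percentile 82.9. Neither promoter had an H3K4me3 peak, and the nearest lay 9.16 kb (A2a) and 9.24 kb (D1) from the *Oxt* promoter, at *Mrps26*, which encodes a mitochondrial ribosomal protein.

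*Gal* encodes galanin, a peptide found in several hypothalamic nuclei and in other brain regions. The gene (ENSMUSG00000024907.7, chromosome 19 from 3409915 to 3414544, minus strand) was wholly covered by an A2a island of 8.0 kb with 607 reads. In D1 an island of 5.4 kb with 216 reads covered the promoter and 59.3% of the gene, and another of 2.4 kb with 71 reads covered its 3′ part. Coverage of the 20 kb around the 5′ end came to 40.0% in A2a and 39.0% in D1. No H3K4me3 peak was called within 24 kb of the promoter in either list.

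The genes of the lateral hypothalamus are *Pmch* and *Hcrt*. *Pmch*, which encodes melanin-concentrating hormone (ENSMUSG00000035383.7, chromosome 10 from 88091072 to 88092375, plus strand), had an A2a island of 1.4 kb over its 5′ end with 93 reads, or 66.4 per kb (53.6 to 81.4), at percentile 2.57 by reads. Its D1 list held no island there, and the nearest, of 3.2 kb with 92 reads, ended 472 bp from the promoter interval. The *Pmch* call in A2a alone therefore rested on a region near the edge of detection by reads and on where the interval was drawn. By reads per kb the A2a island stood at percentile 62.4. *Hcrt*, which encodes the orexin peptides of arousal (ENSMUSG00000045471.4, chromosome 11 from 100761069 to 100762931, minus strand), lay 89.7 kb from the nearest island in A2a and 93.1 kb in D1. The nearest H3K4me3 peaks lay 1.90 and 1.88 kb from its promoter interval, at the potassium channel gene *Kcnh4*, whose 5′ end is 2.99 kb from that of *Hcrt*.

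*Agrp*, which encodes the appetite-raising agouti-related peptide of the arcuate nucleus, was counted as marked by H3K4me3, but the peak lay at another gene. GENCODE extends *Agrp* (ENSMUSG00000005705.10, minus strand) over 70696 bp of chromosome 8, from 105566698 to 105637393, and this 5′ end is 825 bp from that of *Ctcf*, which encodes the chromatin insulator protein CTCF and is read the other way. The peaks from 105635690 to 105638082 in A2a (fold enrichment 5.34) and from 105635839 to 105638038 in D1 (6.42) covered both 5′ ends. At the other annotated *Agrp* starts, 105579845 (which is also the 5′ end of the RefSeq gene) and 105568298, no peak or island of any of the 4 lists overlapped the promoter interval. At those starts *Agrp* thus had the same absence of both marks as *Hcrt*. An island lay inside the extended gene in both lists, with 226 reads in A2a and 81 in D1, 39.4 kb from the promoter interval of the GENCODE 5′ end.

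By reads per kb, the A2a islands were ordered *Trh* (126), *Cartpt* (120), *Crh* (106), *Avp* with *Oxt* (94.3), *Gal* (75.9) and *Pmch* (66.4), all above the list median of 62.5. The counting intervals of *Trh* and *Cartpt* overlapped, as did those of *Gal* and *Pmch*, and those of the other neighbours in this order did not. The order in D1 was *Cartpt* (81.8), *Crh* (64.1), *Trh* (52.6), *Oxt* (46.0) and *Gal* (40.0), where only *Trh* with *Oxt* and *Oxt* with *Gal* overlapped among neighbours. *Cartpt*, *Crh* and *Trh* were thus the densest 3 in both lists. *Trh* led in A2a and was next after *Crh* in D1.

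**Figure D2:**
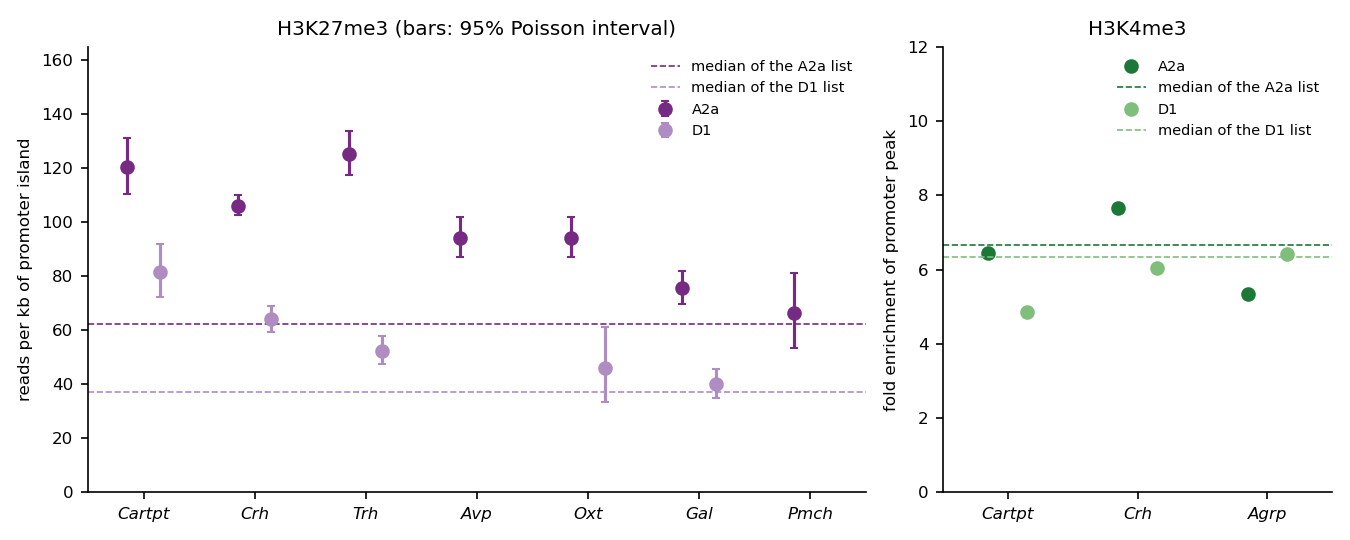
Left, reads per kb of the H3K27me3 island at the promoter (y axis) of the 7 genes with an island, in A2a (dark purple) and D1 (light purple), with 95% Poisson intervals that cover counting error only. Right, fold enrichment of the H3K4me3 peak at the promoter of *Cartpt*, *Crh* and *Agrp* in A2a (dark green) and D1 (light green). Dashed lines are the medians of the lists, and *Cartpt* has the highest D1 value of H3K27me3, 81.8 against a median of 37.2. *Avp* and *Oxt* share 1 A2a island.

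Reads per kb were then set as A2a over D1. They are not normalized between lists, and at the 3132 genes with a promoter island in both lists the median ratio was 1.88, with 1.35 and 2.53 as percentiles 5 and 95. The ratio at *Cartpt* was 1.47 (1.27 to 1.71), at percentile 10.6 of these genes and with an interval that ended below the median. Divided by that median, the *Cartpt* ratio was 0.784 (0.677 to 0.910), which turns its direction. With islands within 5 kb merged, the *Cartpt* ratio was 2.35. The median was not recomputed over merged islands, so the place of this value among the genes is unknown. The ratio was 1.66 (1.53 to 1.80) at *Crh*, at percentile 24.8, and also ended below the median. *Trh* stood on the other side, with 2.39 (2.13 to 2.68) at percentile 92.1. *Gal* (1.90, 1.62 to 2.23) and *Oxt* (2.05, 1.52 to 2.83) had intervals that held the median.

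The fold enrichment of H3K4me3 had a median A2a over D1 ratio of 1.03 over 12194 genes with a promoter peak in both lists. At *Cartpt* the ratio was 1.33, at percentile 92.6, and at *Crh* it was 1.27, at percentile 89.5. *Agrp*, read at the *Ctcf* promoter, had a ratio of 0.831, at percentile 6.68. The peaks carry no read counts from which an interval could be given.

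**Figure D3:**
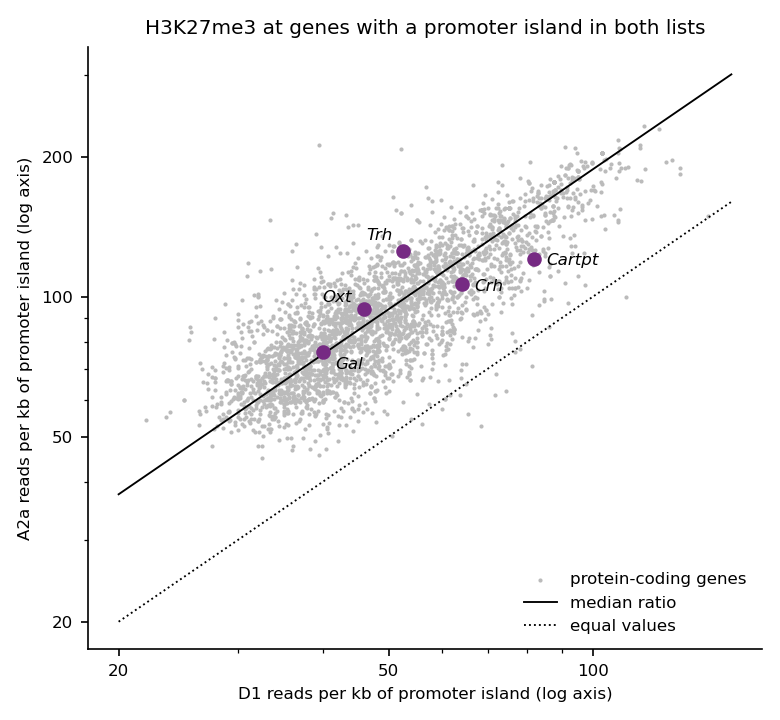
Reads per kb of the H3K27me3 island at the promoter in D1 (x axis) against A2a (y axis), both on log axes, for the 3132 protein-coding genes with an island in both lists (grey) and for the 5 of the 9 genes among them (purple). The solid line is the median ratio, 1.88, and the dotted line marks equal values. As deposited, *Cartpt* and *Crh* lie below the solid line, *Trh* above it, and *Gal* on it.

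CpG content was measured over the same 3-kb promoters in the genome sequence of GRCm38.p6, as the observed over the expected number of CpG sites. *Cartpt* had a value of 0.674, at percentile 90.1 of the 21938 genes. *Oxt* (0.396), *Crh* (0.360), *Trh* (0.333), *Pmch* (0.304), *Gal* (0.276), *Hcrt* (0.228) and *Avp* (0.205) lay below the median of 0.400. *Agrp* had 0.788 at the 5′ end beside *Ctcf*, against 0.152 and 0.171 at its other starts. H3K4me3 followed CpG content over all genes, since it was called in A2a at 1.69%, 21.4%, 77.4%, 93.9% and 96.4% of genes from the lowest to the highest of 5 equal groups by CpG content. H3K27me3 was called in A2a at 17.0%, 28.9%, 28.2%, 19.1% and 15.2% of genes in the same order. *Cartpt* fell in the highest group, where 12.2% of genes carried both marks in A2a and 8.68% in D1. *Trh*, *Crh* and *Oxt* fell in the middle group, where H3K4me3 was called at 77.4% of genes, and only *Crh* of them had a peak. The 300-base windows and the 3-kb promoters gave *Trh* different ranks, since its CpG sites were gathered near the start.

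**Figure D4:**
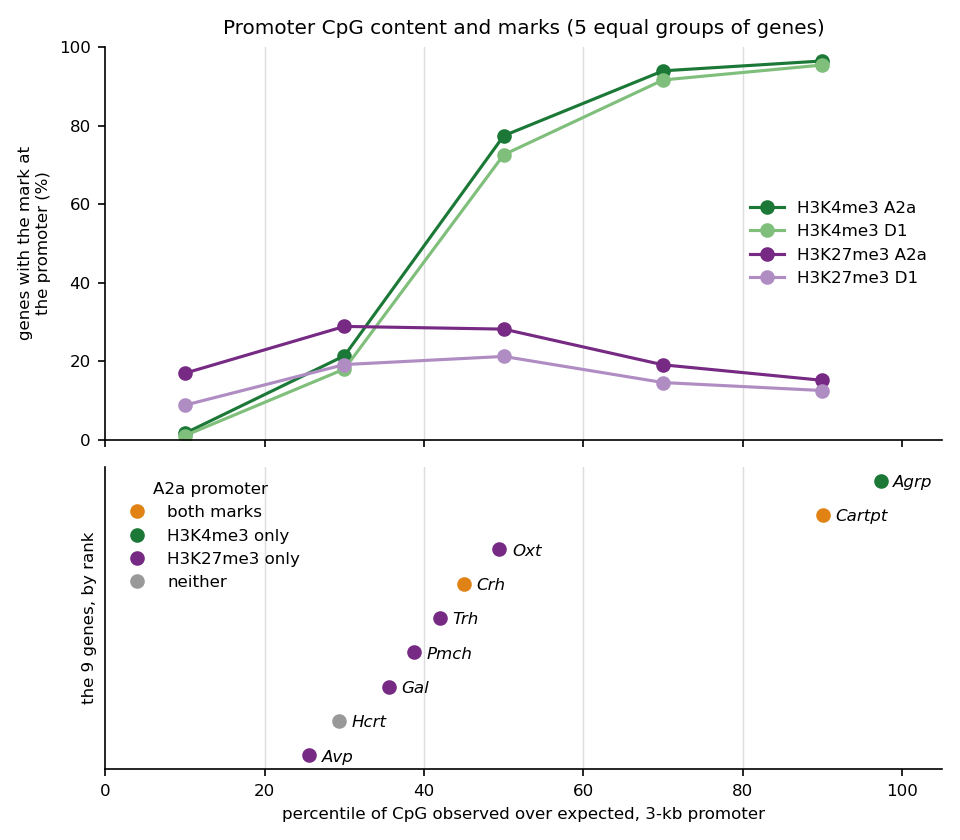
Top, percentage of protein-coding genes with each mark at the promoter (y axis) in 5 equal groups by CpG observed over expected, with H3K4me3 in green and H3K27me3 in purple, dark for A2a and light for D1. Bottom, percentile of the 9 genes on the same x axis, coloured by their marks in A2a, where only *Cartpt* and *Agrp* lie in the highest group. The *Agrp* point is its GENCODE 5′ end beside *Ctcf*.

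Likeness to *Cartpt* was taken as the Euclidean distance over 4 percentiles within lists, of the strongest promoter peak by −log10 q and of the promoter island by reads in A2a and D1, among 1142 other genes with a value in all 4. Among the nearest genes were *Zfp36l2* (an RNA-binding protein that destabilises mRNA), *Pkib* (an inhibitor of protein kinase A), *Arhgap24* (a GTPase activating protein) and *Ggact*, at distances of 5.30 to 6.76 percentile points. Their A2a islands were 5.2 to 7.6 kb long, against 4.4 kb at *Cartpt*. The distance took total reads and not reads per kb, and at similar reads a less dense island is longer. The difference in length is therefore no separate result. *Crh* was further away, at rank 260 of the 1142 with a distance of 17.9.

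The receptors of the peptides other than CART carried H3K4me3 at a share near that of all genes. Of 16 receptor genes, 9 had a peak in A2a (58.2% of all protein-coding genes) and 8 in D1 (55.7%). Islands were called at 12 of them in A2a (21.7% of all genes) and at 10 in D1 (15.3%). Both marks were called in both lists at 5 of them (5.21% of all genes). These were *Oxtr* (oxytocin), *Avpr1a* (vasopressin), *Mc4r* (a melanocortin receptor that AgRP blocks), *Hcrtr2* (orexin) and *Crhr1* (CRH). The islands of *Oxtr* had 1458 reads in A2a and 327 in D1, and those of *Avpr1a* had 1065 and 451. *Crhr2* and *Avpr1b* had an island in A2a alone, as did 7.38% of all genes. *Trhr* had a peak in A2a alone, where 58.2% of all genes had a peak in A2a and 55.6% in both lists. Of 24 other hypothalamic peptide genes, 17 had an island in A2a and 14 in D1, beside the same 21.7% and 15.3% of all genes, while 5 and 4 had a peak, beside 58.2% and 55.7%. Those with both marks in both lists were *Cck*, *Prok2* and *Nts*, beside 5.21% of all genes. In A2a alone, 4 of the 24 had an island (*Rln3*, *Nppc*, *Pomc* and *Tac2*), beside 7.38% of all genes. *Qrfp* had one in D1 alone, a rare state, since 15.3% of all genes had an island in D1 and 14.3% in both lists.

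The peptide genes of the striatal projection neurons themselves, *Penk* (enkephalin), *Pdyn* (dynorphin) and *Tac1* (substance P), carried both marks in both lists, as did *Cartpt* and 5.21% of all genes. They differed from *Cartpt* in how the islands compared. The *Penk* island held 200 reads over 3.4 kb in A2a and 1365 over 23.8 kb in D1, and *Pdyn* held 4641 over 39.6 kb and 50 over 1.0 kb. At *Cartpt* the lengths were 4.4 and 3.4 kb, a ratio of 1.29. The 10 genes that process and pack peptides, such as the convertases and granins, carried H3K4me3 at 10 of 10 promoters in both lists, beside 55.6% of all genes. H3K27me3 was called at 1 of them in both lists, the convertase gene *Pcsk1*, beside 14.3% of all genes. Of 10 transcription factors of hypothalamic neurons, 2 had a peak in both lists, beside 55.6% of all genes. An island was called at 9 of the 10 in both lists (*Hmx2* and *Hmx3* share theirs), beside 14.3% of all genes. Island lengths in A2a ran from 17.8 kb at *Pou3f2*, which carried both marks, to 105.2 kb at *Nkx2-1*. The islands at *Cartpt* and the 6 peptide genes with an A2a island, of 1.4 to 30.6 kb, were mostly shorter than these.

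**Figure D5:**
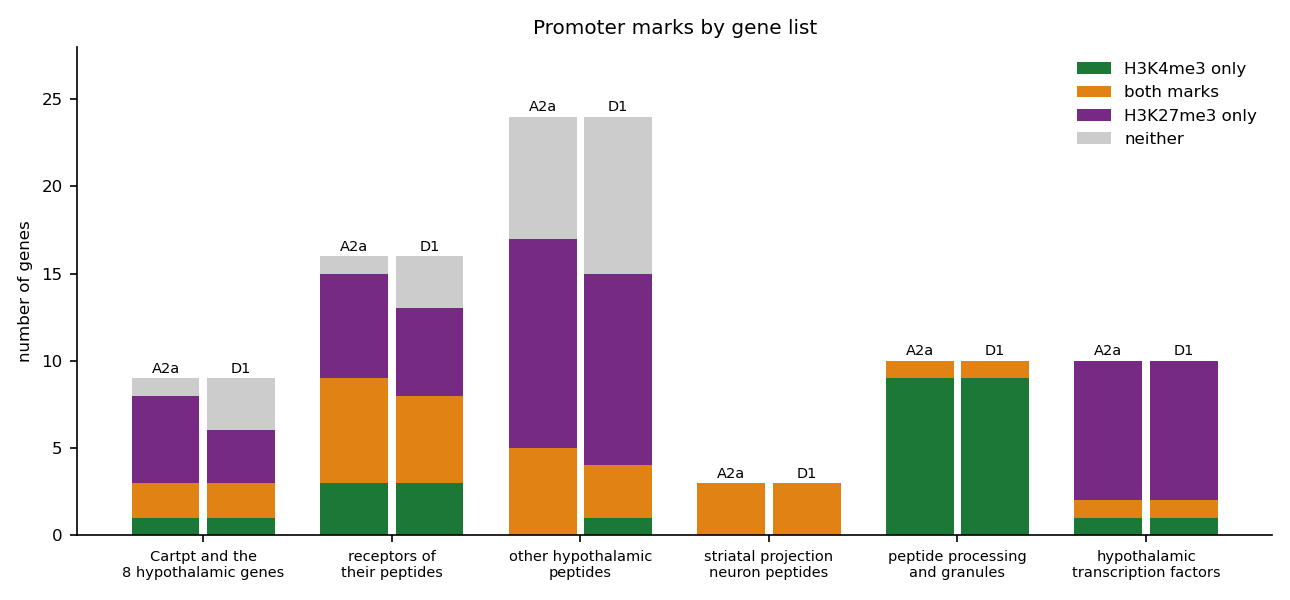
Number of genes (y axis) with H3K4me3 only (green), both marks (orange), H3K27me3 only (purple) or neither (grey) at the promoter, for 6 gene lists (x axis) in A2a (left bar) and D1 (right bar). The 3 striatal peptide genes carry both marks, the 10 processing genes carry H3K4me3, and H3K27me3 alone is the most frequent state of the other hypothalamic peptide genes, at 12 of 24 in A2a and 11 in D1.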

How the data were processed

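CnR libraries from INTACT nuclei of mouse striatum were read through the 4 deposited region lists. Reads had been aligned by the authors with bowtie2 (version 2.1.0, mm10), then filtered and deduplicated. MACS2 (q-value below 0.01) gave the H3K4me3 peaks, and SICER (false discovery rate below 0.01), run against a control, gave the H3K27me3 islands. That control is not named in the sources used here. For peaks, the deposited values are a fold enrichment, which is a ratio to the local background, and a −log10 q. For islands, the deposited value is the count of reads, without normalization. The score column that the authors' caller wrote was not used. Coordinates are 1-based.

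The gene models were those of GENCODE vM21 (GRCm38), and all 148477 regions on its main chromosomes lay within their ends. A promoter was the interval between 2 kb before and 1 kb after the annotated 5′ end. Reads per kb are the reads of an island over its length, with exact Poisson intervals at the 95% level. Ratios of reads per kb have exact binomial intervals, which take the edges of the islands as given. Percentiles are ranks within a list, by −log10 q for peaks and by reads or reads per kb for islands. CpG observed over expected is the number of CpG sites times the length over the product of the C and G counts. No statistical test was made, since each list pools its 2 replicates. The overlap and interval procedures were tested on simulated data.

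The 9 genes and the other gene lists were chosen with earlier results of these data known. From each list, the genes with both marks in both lists or a mark in 1 list were named, up to 4 by reads or −log10 q, as were the 5 genes nearest to *Cartpt*, of which 1 is not reported here. Other genes named outside this rule (neighbours of the 9 genes, *Crhr1*, *Crhr2*, *Avpr1b*, *Trhr*, *Nts*, *Pomc*, *Tac2*, *Qrfp*, *Hmx2*, *Hmx3* and *Nkx2-1*) were chosen after their values had been seen. The alternatives changed the promoter interval, the start, the overlap, the thresholds, the number of regions, the merging of islands and the scaling. The other 20 samples, which include further antibodies, controls and N2a cells, were not analysed here. The software was Python 3.11.15 with numpy 2.4.6, pandas 2.3.3, scipy 1.17.1 and matplotlib 3.10.9.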

Additional observations from a re-analysis of the deposited data

How the results depend on the processing

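The counts of marked promoters among the 9 genes stayed within 1.5 times their reported value in 55 of 60 recomputations. That band holds changes from 5 to 7 and from 2 to 3. Many of the 60 could not change. Settings on islands leave the H3K4me3 counts as they were, and the setting on peaks leaves the island counts. Equal numbers of regions leave the D1 lists whole. The 55 is therefore no measure of stability. Intervals of 5 kb on each side added *Hcrt* to the H3K4me3 counts, through the *Kcnh4* peaks, and brought *Avp* and *Pmch* into the D1 island count, which then equalled that of A2a at 7. A minimum island length of 2000 bp removed *Pmch* in A2a and *Oxt* in D1, and taking as many A2a islands as D1 islands removed *Pmch*. The exception was an alternative chosen after seeing the data, the 5′ end of the RefSeq gene. It gave 1 gene with H3K4me3 and 1 with both marks in each list (*Crh*) and 3 with H3K27me3 in D1, because the RefSeq *Cartpt* gene begins 9088 bp upstream of the GENCODE one (unlike the start in the RefSeq promoter table, 408 bp downstream of it), that of *Agrp* 57548 bp downstream and that of *Oxt* 1654 bp upstream.

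The A2a over D1 ratio of H3K27me3 reads per kb at *Cartpt* was 1.47 as deposited and 2.35 when islands within 5 kb were merged, which joins the second D1 island and the gap before it. It reversed to 0.877 after division by the ratio of the lists' medians and to 0.784 after division by the median ratio over genes. The ratio of H3K4me3 fold enrichment moved from 1.33 to 1.28 after the same division, and percentiles by −log10 q gave 1.75. No direction of a difference in H3K27me3 between A2a and D1 can therefore be stated for *Cartpt*.

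No paired analysis was possible because each list pools its replicates, and no replicate was left out for the same reason. Low islands (46 reads at *Oxt* in D1, 93 at *Pmch* in A2a) lie near the smallest called, 27 and 36 reads, so absence from a list there is not absence of the mark.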
